A study of Mus musculus with 12 samples.

Results

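Matrix metalloproteinases (MMPs) and tissue inhibitors of metalloproteinases (TIMPs) were followed as a family of 10 genes, the 6 proteases Mmp2, Mmp3, Mmp9, Mmp10, Mmp13 and Mmp14 and the 4 inhibitors Timp1 to Timp4. They were chosen by gene symbol, with earlier results of these data known, from the 19938 genes measured. Each was read by 1 probe set, so that no choice between probe sets was needed. The cells were fibroblasts cultured from mouse embryos, either wild type or labelled MLL1 KO, where MLL1 is the histone methyltransferase encoded by Kmt2a. Before the experiment all grew in medium holding newborn calf serum (5%) and fetal bovine serum (5%), and all received 50% horse serum for 2 h, a shock that sets the clocks of the culture to a common phase. RNA was taken 18 h and 30 h after the shock (CT18 and CT30), giving 4 groups of 3 arrays, and the question was how the genotypes differ at these circadian times. The labels give no knockout allele, no embryo or clone behind either genotype and no statement that replicates were separate cultures, so p-values reflect array-to-array spread alone, and that spread may be technical.

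MMPs are zinc proteases that are made as inactive precursors and, once activated, cut collagens, proteoglycans, adhesion proteins and growth factor carriers. TIMPs bind the active site of an MMP and block it. In fibroblasts, Mmp2 and Mmp14 are commonly present in resting cultures, whereas Mmp3, Mmp10 and Mmp13 belong to a group of neighbouring genes that are typically switched on by serum, cytokines and growth factors, often through the AP-1 transcription factor.

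Median intensity ran from 273.3 to 311.8 over the 12 arrays, and precision is limited by having 3 of them per group. Across genes, correlation was 0.989 to 0.997 within groups and 0.879 to 0.914 between genotypes. On the second principal component, which separated the times, knockout 18 h replicate 1 lay at 9.7, between replicates 2 and 3 of its group (26.2 and 26.8) and the knockout 30 h arrays (-26.5 to -20.4). Kmt2a differed by -0.19 (log2, adjusted p = 0.132) at 18 h and by -0.57 (adjusted p = 0.000109) at 30 h. Where its probes lie relative to the disrupted part is not given in the labels, so the values cannot serve as a check of the knockout. Among 12 fibroblast markers 3 were higher and 6 lower in knockout at 18 h, and 4 were higher and 7 lower at 30 h. Some of these differences did not pass under another scaling or with a single array left out. They were Col1a2 and Vim at both times, and Thy1, Twist1 and Prrx1 at 30 h. The largest adjusted p was 0.423, for Vim at 30 h under quantile scaling. At an adjusted p under 0.05, 45.5% of all genes differed at 18 h and 39.2% at 30 h. The largest difference among these markers was that of the proteoglycan gene Dcn, higher by 3.74 and 4.33. Among the collagen genes of this list Col1a1 was higher by 0.52 and 0.37 and Col3a1 lower by -2.53 and -2.20, and the receptor gene Pdgfra was lower by -3.22 and -2.93.

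Promoter sequences from RefSeq (assembly GRCm38.p6) were matched for 8 of the 10 genes. The windows ran from 250 bases before to 50 bases after each annotated start. The 120 bases before the start are shown for Mmp13, Mmp3 and Mmp10, which lie in a gene cluster on chromosome 9 and were higher in knockout at both times, and for Timp3, the inhibitor with the largest difference between genotypes. Each is written 5′ to 3′ on the strand of the gene, the plus strand in all 4. Capitals mark letters that match the AP-1 motif TGANTCA, the ETS core AGGAAG or the TATA box TATAAA.
Mmp13, chr9:7272394-7272513: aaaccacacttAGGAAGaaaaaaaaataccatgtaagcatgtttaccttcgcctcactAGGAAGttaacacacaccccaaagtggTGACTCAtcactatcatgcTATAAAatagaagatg
Mmp3, chr9:7445702-7445821: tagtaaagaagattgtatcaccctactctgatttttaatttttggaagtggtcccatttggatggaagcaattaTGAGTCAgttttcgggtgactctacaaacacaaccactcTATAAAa
Mmp10, chr9:7502222-7502341: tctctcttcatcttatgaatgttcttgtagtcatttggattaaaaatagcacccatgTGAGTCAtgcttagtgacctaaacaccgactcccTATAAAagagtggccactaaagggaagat
Timp3, chr10:86300292-86300411: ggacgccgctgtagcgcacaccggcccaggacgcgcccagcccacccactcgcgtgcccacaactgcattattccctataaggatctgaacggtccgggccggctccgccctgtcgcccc

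Mmp3, Mmp10 and Mmp13 each held 1 AP-1 match and 1 TATA match in the window, and none of the other 5 promoters held either. The AP-1 match began 46 bases before the annotated start in Mmp3, 63 before it in Mmp10 and 35 before it in Mmp13. The match read TGAGTCA in Mmp3 and Mmp10 and TGACTCA in Mmp13. Of 32851 promoter windows of the same length in the table, 7.81% held an AP-1 match on either strand, 13.6% a TATA match and 35.4% an ETS match. ETS matches numbered 2 in Mmp13, 3 in Timp1, 1 each in Mmp3, Mmp14, Timp3 and Timp4, and 0 in Mmp10 and Timp2. A match describes letters in a window and is not evidence that a factor binds there. Distances depend on the annotated start, and in Mmp3 the TATA match ended 2 bases before it.

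Between the genotypes at 18 h, Mmp2 was lower in knockout and Mmp10, Mmp3, Mmp13, Mmp9, Timp3 and Timp1 were higher. Of the 10 genes 9 were called at an adjusted p under 0.05, 6 higher and 3 lower. Across all 19938 genes 45.5% were called at 18 h, 20.1% higher and 25.4% lower, so a call by itself was common. The excess of lower calls depended on scaling, since quantile scaling gave 4752 higher and 4662 lower at 18 h and 4316 and 3855 at 30 h. Lower calls remained more numerous under the other scalings. With array medians set equal, 4516 were higher and 4543 lower at 18 h, and 3699 and 4052 at 30 h. Cyclic loess scaling gave 4566 and 4828 at 18 h, and 3869 and 4186 at 30 h. At 30 h 8 of the 10 were called, 6 higher and 2 lower, where 39.2% of all genes were called, 18.2% higher and 21% lower. The median difference over the 10 genes was 1.06 at 18 h and 0.54 at 30 h, beside -0.01 and 0.03 over all genes. Fold changes are log2 differences of intensity plus 16, an offset that understates the change of dim genes. In bulk RNA such as this, fewer cells of a type and less RNA per cell cannot be told apart.

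**Figure D1:**
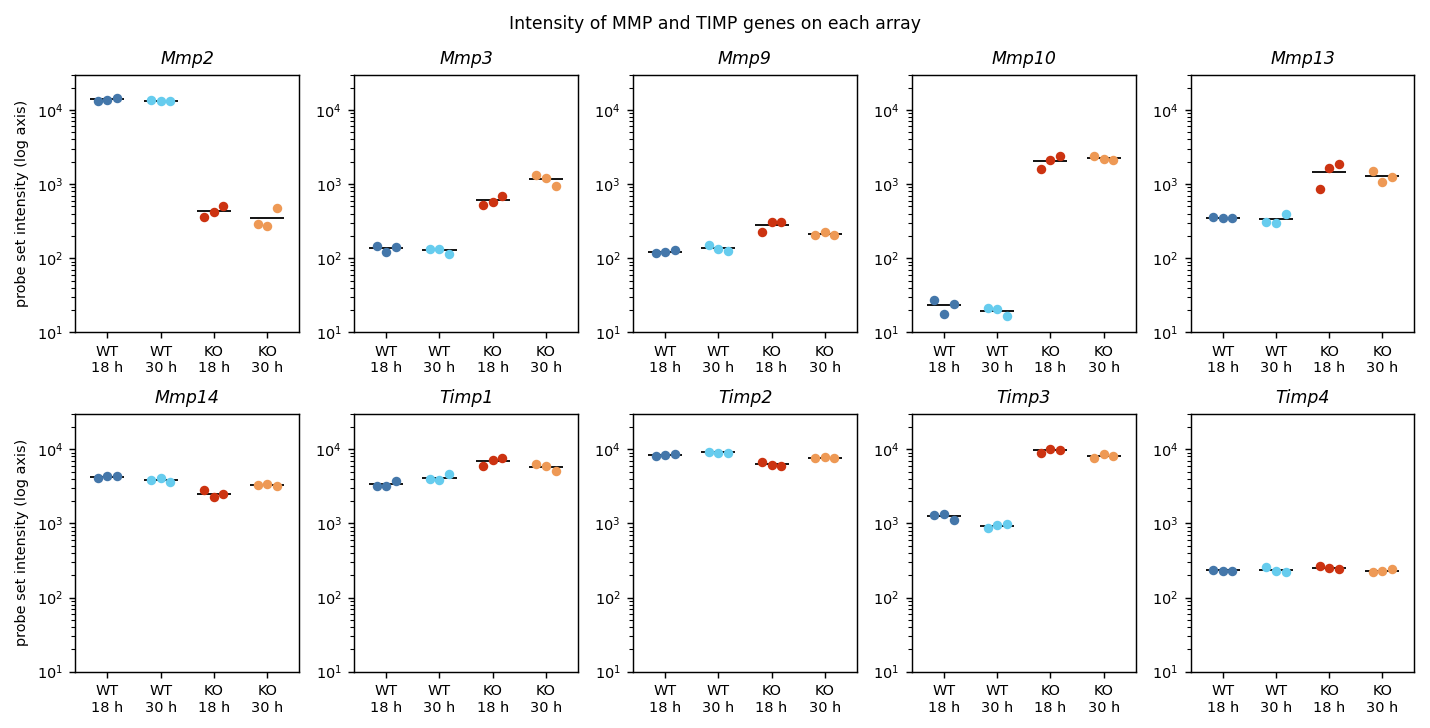
Probe set intensity (log axis) of the 10 genes on each of the 12 arrays. Points are single arrays, in the order of replicates 1 to 3 within wild type (WT) and knockout (KO) at 18 h and 30 h, and black lines are group means. Mmp2 lay between 13032 and 14567 in wild type and between 273.3 and 513.0 in knockout, and Mmp10 between 16.8 and 27.6 and between 1575 and 2385.

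Mmp2, or gelatinase A, cuts denatured collagen and basement membrane collagen. Its wild-type intensities were 13368, 13703 and 14567 at 18 h, against 13478, 13335 and 13032 at 30 h. In knockout they were 363.6, 423.5 and 513.0 at 18 h and 286.4, 273.3 and 478.1 at 30 h. Every knockout array was far below every wild-type array, and the groups of one genotype overlapped between times. The mean was 32 times higher in wild type at 18 h and 38.4 times higher at 30 h. The log2 difference was -4.96 ± 0.151 (SE, n = 3 each, adjusted p = 7.07e-15) at 18 h and -5.24 ± 0.151 (adjusted p = 3.76e-15) at 30 h. In the order of all 19938 differences it stood 65th from the lowest at 18 h and 42nd from the lowest at 30 h.

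Mmp14 encodes a membrane-anchored MMP that activates the Mmp2 precursor together with Timp2. At 18 h its intensities were 4083, 4321 and 4394 in wild type, against 2839, 2240 and 2458 in knockout, with no overlap. They were 3786, 4095 and 3589 in wild type and 3322, 3441 and 3196 in knockout at 30 h, again without overlap but much closer. Mmp14 was lower in knockout at 18 h by -0.77 ± 0.08 (SE, adjusted p = 2.18e-07). At 30 h the difference of -0.20 ± 0.08 did not pass (adjusted p = 0.0548). Over 25 alternative settings the adjusted p of that 30 h value ran from 0.00221 to 0.233. It passed in 7 of them, among them a filter at the 30th percentile of intensity (adjusted p = 0.0438) and without wild-type 30 h replicate 3 (-0.25, adjusted p = 0.0431), knockout 18 h replicate 1 (-0.20, adjusted p = 0.0171) or knockout 18 h replicate 2 (-0.20, adjusted p = 0.0386).

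Mmp10, or stromelysin 2, degrades proteoglycans and non-fibrillar matrix and can activate other MMP precursors. Wild-type intensities were 27.6, 17.8 and 24.0 at 18 h, against 21.4, 20.4 and 16.8 at 30 h. Knockout intensities were 1575, 2092 and 2385 at 18 h, against 2364, 2192 and 2131 at 30 h. In wild type the probe set was among the dimmest, at the 0.7th percentile of genes, and in knockout it stood at the 86.4th. The log2 difference of 5.69 ± 0.132 (SE, adjusted p = 2.02e-16) at 18 h was followed by 5.98 ± 0.132 (adjusted p = 1.43e-16) at 30 h. How far the wild-type level lies above background is unknown, and the size depends on the offset, from 6.38 with an offset of 1 to 4.56 with 64 at 18 h, and from 6.77 to 4.78 at 30 h.

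Mmp3, or stromelysin 1, cuts a wide range of matrix proteins and also activates collagenase precursors. Its wild-type intensities were 144.9, 121.9 and 141.0 at 18 h and 134.5, 135.2 and 113.6 at 30 h. Knockout arrays read 529.4, 580.9 and 691.9 at 18 h, against 1333, 1203 and 949.3 at 30 h. The genotypes did not overlap, and within knockout the 30 h arrays all exceeded the 18 h arrays. The difference between genotypes was 2.02 ± 0.126 (SE, adjusted p = 2.05e-10) at 18 h and 3.02 ± 0.126 (adjusted p = 6.74e-13) at 30 h. Mmp3 and Mmp10 are close relatives, and the sources used here do not give the probe positions, so signal shared between their probes was not tested.

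Mmp13, the main collagenase of rodents, opens the triple helix of fibrillar collagens. Wild-type intensities were 356.8, 344.1 and 350.1 at 18 h, against 307.9, 300.7 and 393.5 at 30 h. In knockout they were 848.9, 1630 and 1851 at 18 h and 1499, 1074 and 1249 at 30 h. All 6 knockout arrays were above all 6 wild-type arrays, and knockout 18 h replicate 1 was the lowest of them. The difference was 1.92 ± 0.202 (SE, adjusted p = 2.45e-07) at 18 h and 1.88 ± 0.202 (adjusted p = 4.27e-07) at 30 h. The 18 h value ranged from 1.70 to 2.26 over 25 alternative settings, which include leaving out each array. Mmp13 is made by cartilage and bone cells, and of 7 measured markers of those cells Sox9 was higher (1.34 at 18 h and 2.03 at 30 h) and Col10a1 lower (-1.84 and -1.92), with the other 5 not called at either time. The summed intensity of the 7 markers was 2313 to 2368 in wild type and 3001 to 3434 in knockout at 18 h, and 2187 to 2304 and 3761 to 4078 at 30 h. These sums add the levels of different probe sets, and Sox9, with means of 604.8 and 1565 at 18 h and 556.8 and 2325 at 30 h, is the one marker called higher in them. Their part in the Mmp13 difference was not tested.

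Mmp9, or gelatinase B, shares substrates with Mmp2 and is abundant in neutrophils and macrophages. It was dim, and at 18 h it read 116.6, 119.7 and 128.0 in wild type, against 228.0, 310.8 and 306.6 in knockout. At 30 h it read 148.8, 132.9 and 125.0 in wild type and 208.0, 226.9 and 208.5 in knockout. The genotypes did not overlap at either time, and the difference was smaller at 30 h. It was 1.1 ± 0.113 (SE, adjusted p = 1.74e-07) at 18 h and 0.61 ± 0.113 (adjusted p = 0.000246) at 30 h. Among 14 markers of macrophages, neutrophils and mast cells, Cd68 was higher (0.88) and Cybb lower (-1.43) at 18 h, and Cd14 higher (0.66) and Cybb lower (-1.79) at 30 h. The pan-leukocyte marker Ptprc was dim, with group means of 145.9 to 163.1, and differed by -0.02 (adjusted p = 0.933) and -0.05 (adjusted p = 0.803). At each time 12 of the 14 markers were not called. No marker was at 0 on these arrays, and their sum ran from 3154 to 3280 in wild type and 3259 to 4853 in knockout at 18 h, and from 2893 to 2994 and 2762 to 2929 at 30 h. Cd68, the only marker called higher at 18 h, averaged 1175 ± 47.3 in wild type and 2305 ± 873 in knockout then (SD, n = 3 each). Whether macrophages, neutrophils or mast cells take part in the Mmp9 difference was not tested.

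Timp3 is the inhibitor that stays bound to the extracellular matrix, and it also blocks ADAM and ADAMTS proteases. Its wild-type intensities were 1297, 1351 and 1110 at 18 h and 868.1, 950.5 and 977.3 at 30 h. Knockout arrays read 9011, 9962 and 9902 at 18 h, against 7568, 8676 and 8092 at 30 h. Every knockout array stood above every wild-type array, by a ratio of means of 7.68 at 18 h and 8.70 at 30 h. On the log2 scale the difference was 2.93 ± 0.082 (SE, adjusted p = 2.18e-15) and 3.10 ± 0.082 (adjusted p = 1.17e-15).

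Timp1, a secreted inhibitor that blocks most soluble MMPs and is induced by serum and cytokines, was also higher in knockout. At 18 h its intensities were 3154, 3176 and 3783 in wild type and 5920, 7058 and 7541 in knockout. At 30 h they were 3969, 3818 and 4601 in wild type and 6333, 5979 and 5022 in knockout. The genotypes did not overlap at either time, though wild-type 30 h replicate 3 and knockout 30 h replicate 3 came near each other. The difference was 1.02 ± 0.103 (SE, adjusted p = 1.49e-07) at 18 h and 0.48 ± 0.103 (adjusted p = 0.00088) at 30 h.

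Timp2, the inhibitor that bridges Mmp14 and the Mmp2 precursor on the cell surface, was lower in knockout by a small margin. At 18 h it read 8008, 8342 and 8538 in wild type, against 6665, 6137 and 6024 in knockout. At 30 h it read 9230, 8996 and 8954 in wild type and 7681, 7865 and 7563 in knockout. The genotypes did not overlap within a time. The differences were -0.40 ± 0.051 (SE, adjusted p = 2.29e-06) and -0.23 ± 0.051 (adjusted p = 0.000988). At 30 h 57.3% of all genes had a smaller absolute difference than Timp2. The 3 genes of the cell-surface activation unit were therefore all lower in knockout at 18 h, Mmp2 by the most, and at 30 h Mmp2 and Timp2 were lower while Mmp14 did not pass.

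Timp4, an inhibitor best known from heart and brain, was the 1 gene of the family not called in any comparison. Its 12 arrays read between 218.6 and 267.2. The difference between genotypes was 0.11 (95% interval -0.07 to 0.30, adjusted p = 0.348) at 18 h and -0.03 (-0.22 to 0.16, adjusted p = 0.825) at 30 h. At 18 h the knockout arrays (267.2, 250.8 and 239.5) all lay above the wild-type arrays (234.3, 230.0 and 231.1). Wild-type and knockout arrays were fully separated in all 10 genes at 18 h, against 52% of all genes, and in 9 at 30 h, against 48.8%.

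**Figure D2:**
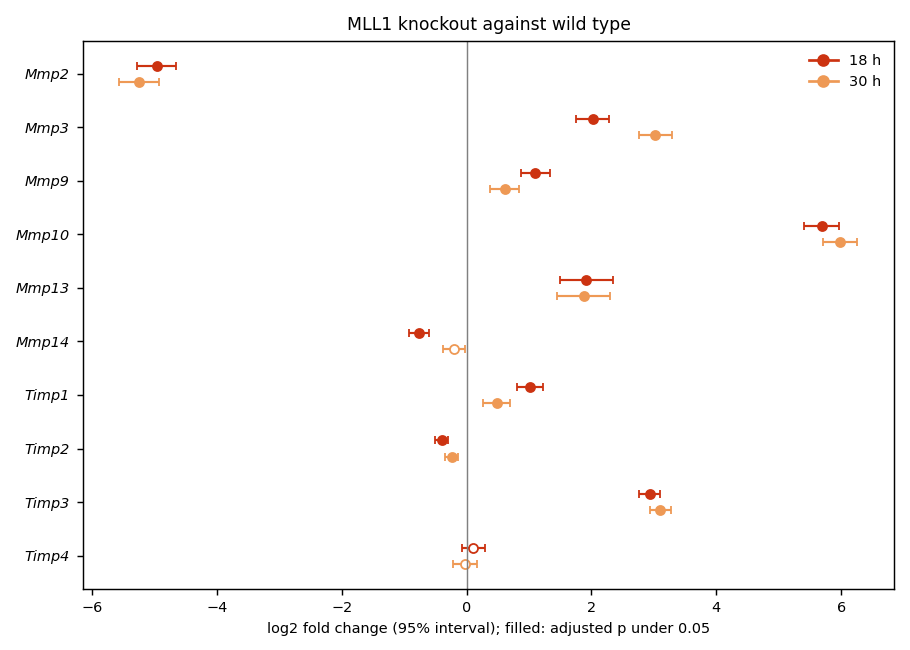
Log2 fold change of knockout against wild type for the 10 genes at 18 h (red) and 30 h (orange). Points are limma estimates with 95% intervals, filled where the adjusted p was under 0.05. Mmp10 at 5.69 and 5.98 and Mmp2 at -4.96 and -5.24 lie at opposite ends, and Timp4 lies at 0.11 and -0.03.

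Knockout 18 h replicate 1, the array that stood apart, was the lowest of its group in 7 of the 10 genes and the highest in the other 3, Mmp14, Timp2 and Timp4. Leaving it out kept 9 genes called at 18 h. Leaving out any 1 of the 12 arrays kept 9 called at 18 h and 8 or 9 at 30 h. Of all genes, 8242 to 9302 were then called at 18 h and 6882 to 8265 at 30 h.

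Between 18 h and 30 h after the shock, in wild type 1 of the 10 genes was called, where 2.35% of all genes were called (1.4% up and 0.948% down). In knockout 5 were called, 3 up and 2 down, where 27.3% of all genes were (14.4% up and 13% down). Timp3 fell in wild type by 0.42 on the log2 scale (SE 0.082, adjusted p = 0.0116), and all 3 arrays at 30 h lay below the 3 at 18 h. This call ended without wild-type 18 h replicate 1 (-0.39, adjusted p = 0.0553) or 2 (-0.36, adjusted p = 0.0682) or wild-type 30 h replicate 1 (-0.37, adjusted p = 0.083). Timp1 at 0.29 (adjusted p = 0.164) and Timp2 at 0.13 (adjusted p = 0.232) had 30 h arrays all above the 18 h arrays in wild type but did not pass. Such separation by time was found in 3 of the 10 genes in wild type and in 21.8% of all genes.

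In knockout Mmp3 rose between 18 h and 30 h by 0.93 ± 0.126 (SE, adjusted p = 3.02e-05), a ratio of means of 1.93. Mmp14 rose by 0.41 ± 0.08 (adjusted p = 0.000839) and Timp2 by 0.30 ± 0.051 (adjusted p = 0.000247). Mmp9 fell by 0.36 on this scale (adjusted p = 0.0238) and Timp3 fell by 0.25 (adjusted p = 0.0305). In these 5 genes the arrays of the times did not overlap in knockout, as in 35.8% of all genes. The Mmp9 and Timp3 calls each ended on leaving out any 1 of 4 arrays, knockout 18 h replicates 2 and 3 and knockout 30 h replicates 1 and 3. Mmp9 then had values of -0.28, -0.29, -0.34 and -0.34 and Timp3 values of -0.22, -0.23, -0.20 and -0.25.

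Knockout 18 h replicate 1 bore on the other knockout time effects. With all arrays Mmp2 had -0.34 (adjusted p = 0.109), Timp1 -0.24 (adjusted p = 0.0961) and Mmp13 -0.12 (adjusted p = 0.776). Without that replicate these became -0.46 (adjusted p = 0.0346), -0.34 (adjusted p = 0.0157) and -0.46 (adjusted p = 0.0119). The number of family members called rose from 5 to 8, and the number of all genes called from 5453 to 6030. Without knockout 30 h replicate 3, in which Mmp2 was highest of the 3, the Mmp2 value was -0.59 (adjusted p = 0.000751). Mmp10 had 0.16 (95% interval -0.12 to 0.44, adjusted p = 0.451) and did not pass with or without any 1 array. The replicate that stood apart lay on the 30 h side of its group in Mmp2, Mmp9, Mmp13, Mmp14, Timp1, Timp2 and Timp3. In Mmp3, Mmp10 and Timp4 it lay on the far side. In Mmp13 its 848.9 was also below every knockout 30 h array (1074 to 1499).

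**Figure D3:**
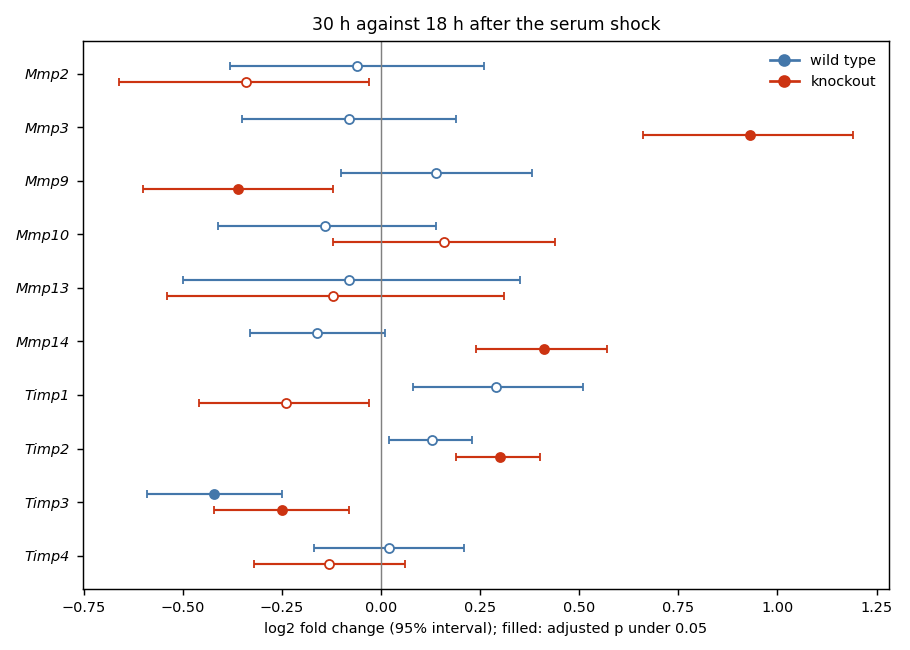
Log2 fold change of 30 h against 18 h after the serum shock in wild type (blue) and knockout (red). Points are limma estimates with 95% intervals, filled where the adjusted p was under 0.05. Mmp3 in knockout, at 0.93, lies furthest from 0, and Timp3 at -0.42 is the filled point of wild type.

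The difference between the time effects, knockout minus wild type, was called for 4 of the 10 genes, 2 positive and 2 negative, where 13.4% of all genes were called (6.61% positive and 6.8% negative). It was 1.01 ± 0.179 (SE, adjusted p = 0.0013) for Mmp3 and 0.56 ± 0.113 (adjusted p = 0.00302) for Mmp14. Mmp3 passed in all 23 and Mmp14 in all 24 of the alternative settings in which they were fitted, and a 2-fold change, asked for in addition, is more than Mmp14 reached. For Timp1 it was -0.53 ± 0.145 (adjusted p = 0.0203), from a value of 0.29 in wild type and -0.24 in knockout, neither of which passed by itself. This call ended on leaving out any 1 of 6 arrays, with an adjusted p of up to 0.0672. For Mmp9 the value of -0.50 ± 0.16 (adjusted p = 0.0478) ended on leaving out any 1 of 11 of the 12 arrays, with an adjusted p of up to 0.145. The contrasts of time and of genotype use the same 12 arrays and are not independent.

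From lowest to highest group, Mmp3 ran from wild type, where 30 h and 18 h did not differ beyond their spread, to knockout 18 h and then knockout 30 h. Mmp9 ran from wild type, with times not separated by the test, to knockout 30 h and then knockout 18 h. For Mmp10 and Mmp13 the order was wild type then knockout, with the times of neither genotype separated. Timp3 ran from wild type 30 h to wild type 18 h, knockout 30 h and knockout 18 h. Mmp2 ran from knockout to wild type. Mmp14 ran from knockout 18 h to knockout 30 h, wild type 30 h and wild type 18 h, where the neighbours among the last 3 did not differ by the test.

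Mmp3, Mmp10 and Mmp13 lie in 1 cluster of MMP genes on chromosome 9, ordered Mmp13, Mmp12, Mmp1b, Mmp3, Mmp1a, Mmp10, Mmp8, Mmp27, Mmp20 and Mmp7. The other 7 genes of the cluster did not share their size of difference. Mmp12, between Mmp13 and Mmp3, had means of 217.5 and 243.8 in wild type and knockout at 18 h (0.15, adjusted p = 0.275) and 219.9 and 251.6 at 30 h (0.18, adjusted p = 0.197). Mmp1a, between Mmp3 and Mmp10, was dim, at 50.8 ± 8.43 and 55.7 ± 5.21 at 18 h (SD, n = 3 each, 0.11, adjusted p = 0.54), and was called at 30 h at 0.34 (adjusted p = 0.032). Mmp1b, also dim, with 18 h means of 42.4 in wild type and 24.9 in knockout, was lower by -0.51 at 18 h (adjusted p = 0.00122) and had -0.17 (adjusted p = 0.286) at 30 h. Mmp27 was lower by -0.40 at 18 h and -0.31 at 30 h. Mmp7, Mmp8 and Mmp20 had values between -0.20 and 0.12 and did not pass at either time. The calls of Mmp1a and Mmp27 at 30 h ended on leaving out single arrays, Mmp1a with an adjusted p of up to 0.138 and Mmp27 of up to 0.126.

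Outside the cluster, the nearest flanking genes measured were also followed. Beyond Mmp7, the membrane protein gene Tmem123 was higher (0.70 and 0.62) and Birc3, an inhibitor of cell death, was higher by 2.02 and 1.93, while its neighbour Birc2 had 0.07 and -0.31 (adjusted p = 0.714 and 0.0511). Beyond Mmp13, Dcun1d5 had 0.11 (adjusted p = 0.576) and 0.60 (adjusted p = 0.00202), Dync2h1 did not pass, and the growth factor gene Pdgfd was higher by 1.48 and 0.72. Of the 17 genes from Pdgfd to Yap1, 6 were higher and 3 lower at 18 h and 8 higher and 1 lower at 30 h. Mmp3, Mmp10 and Mmp13 are among those higher at both times, and the unsteady Mmp1a call among those at 30 h. Beside these counts, 20.1% of all genes were higher and 25.4% lower at 18 h, and 18.2% and 21% at 30 h.

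**Figure D4:**
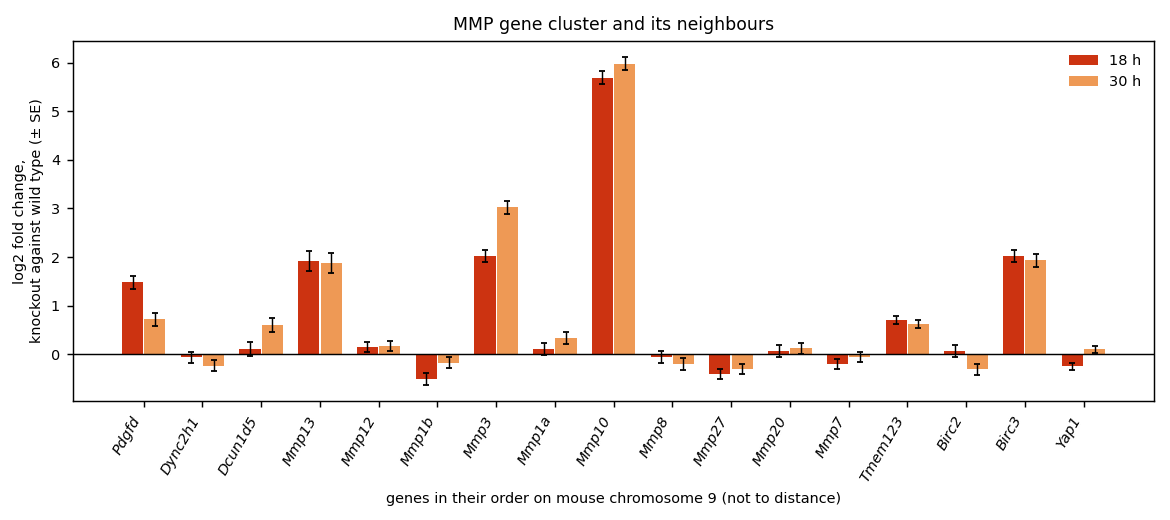
Log2 fold change of knockout against wild type (bars, ± SE) for 17 genes in their order on mouse chromosome 9, at 18 h (red) and 30 h (orange). The genes are evenly spaced and not drawn to distance. Mmp10, Mmp3 and Mmp13 are the high bars among MMP genes at 5.69, 2.02 and 1.92 at 18 h, with low bars such as Mmp12 at 0.15 and Mmp1a at 0.11 between them.

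Of 16 other MMP genes measured, 4 were higher and 5 lower at 18 h and 3 higher and 4 lower at 30 h, with medians of 0.02 and 0.01. The 9 and 7 called are set beside 45.5% and 39.2% of all genes. Mmp16, a membrane-anchored relative of Mmp14, had 18 h means of 131.8 ± 21.6 in wild type and 566.2 ± 84.9 in knockout (SD, n = 3 each) and was higher by 1.98, and by 2.11 at 30 h. Mmp19 was lower by -2.27 and -2.03, and Mmp23 by -1.55 and -1.27. Mmp17 (0.64 at 18 h), Mmp25 (0.55 and 0.57) and Mmp28 (-0.51 and -0.68) differed by less. No value among these 16 genes was as large as those of Mmp2 and Mmp10.

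Timp1, Timp3 and Timp4 each lie within a synapsin gene, Syn1, Syn3 and Syn2. In the RefSeq promoter table Timp1 and Syn1 are on opposite strands, as are Timp4 and Syn2. Syn1 was higher in knockout by 2.63 at 18 h and 1.84 at 30 h, beside 1.02 and 0.48 for Timp1. Syn3 had 0.10 (adjusted p = 0.471) and 0.35 (adjusted p = 0.0087), beside 2.93 and 3.10 for Timp3, and Syn2 had 0.00 and -0.08, beside 0.11 and -0.03 for Timp4. Whether signal is shared between overlapping genes was not tested.

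Genes of MMP activation and clearance were called in both directions. Of 20 measured, which include Mmp14, 8 were higher and 6 lower in knockout at 18 h and 5 higher and 7 lower at 30 h, with medians of 0.11 and 0.01. Of all genes 20.1% were higher and 25.4% lower at 18 h, and 18.2% and 21% at 30 h. Plaur, the receptor that holds urokinase at the cell surface where plasmin activates MMP precursors, was higher by 2.54 and 2.28. Cd44, a hyaluronan receptor that can dock Mmp9 and Mmp14, was higher by 1.04 and 0.90, and the urokinase gene Plau was higher by 1.00 at 18 h with -0.03 (adjusted p = 0.892) at 30 h. Pcsk6, a proprotein convertase, was lower by -4.49 and -4.41, and the collagen uptake receptor Mrc2 by -0.89 and -1.42. The integrin gene Itgb3 was lower by -0.56 and -1.57.

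A list of ADAM and ADAMTS protease genes and a few others was set beside Timp3, and binding of each product by Timp3 was not tested. Of 14 measured, 5 were higher and 5 lower at 18 h and 4 higher and 7 lower at 30 h. The medians were -0.04 and -0.33, and 45.5% and 39.2% of all genes were called. The aggrecan-cutting protease gene Adamts5 was lower by -3.12 and -4.23, and the Timp3-binding matrix protein gene Efemp1 by -3.80 and -3.78. Adamts9 was higher by 3.25 and 2.97. Adam12 (0.58 and 1.00) and the receptor gene Kdr (1.52 and 0.43) were higher too, and Adamts1 was lower by -1.62 and -1.82. The Kdr call at 30 h ended without wild-type 30 h replicate 2 (0.35, adjusted p = 0.102) or knockout 30 h replicate 2 (0.34, adjusted p = 0.108).

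The factor genes that can act on AP-1, ETS, RUNX and NF-kB sites were more often higher than lower at 18 h. Of 22 measured 13 were higher and 4 lower at 18 h (median 0.45) and 9 higher and 5 lower at 30 h (median 0.15), where 20.1% of all genes were higher and 25.4% lower at 18 h, and 18.2% higher and 21% lower at 30 h. Etv4, an ETS factor, was higher by 2.37 and 2.14. Jun, a subunit of AP-1, averaged 1435 ± 91.2 (SD, n = 3) in wild type at 18 h, against 3782 ± 363 (SD, n = 3) in knockout, and was higher by 1.39, and by 1.16 at 30 h. Nfkb2 was higher by 1.23 and 0.78. Elk1 (-0.36 and -0.33) and Etv1 (-0.25 and -0.50), both ETS factors, were lower. Atf3 was higher by 0.84 at 18 h and lower by -0.95 at 30 h. The AP-1 genes Jund (-0.31, adjusted p = 0.0166) and Fosl1 (-0.29, adjusted p = 0.00987) were lower at 18 h. At 30 h they had -0.03 and 0.14 and did not pass. Cebpb was lower by -0.40 at 30 h (adjusted p = 0.0125). The Jund, Fosl1 and Cebpb calls ended on leaving out single arrays, with an adjusted p of up to 0.0997, 0.0666 and 0.0882. The Etv1 call at 18 h ended under 3 other scalings (adjusted p = 0.089, 0.0719 and 0.103), as did the Jund call (0.0524, 0.0656 and 0.0543). The Etv1 call also ended on leaving out either of 2 wild-type or 2 knockout arrays of that time, with an adjusted p of up to 0.119. Among 186 genes of all lists these scalings each ended 2 to 6 calls between genotypes at either time and reversed no called direction.

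**Figure D5:**
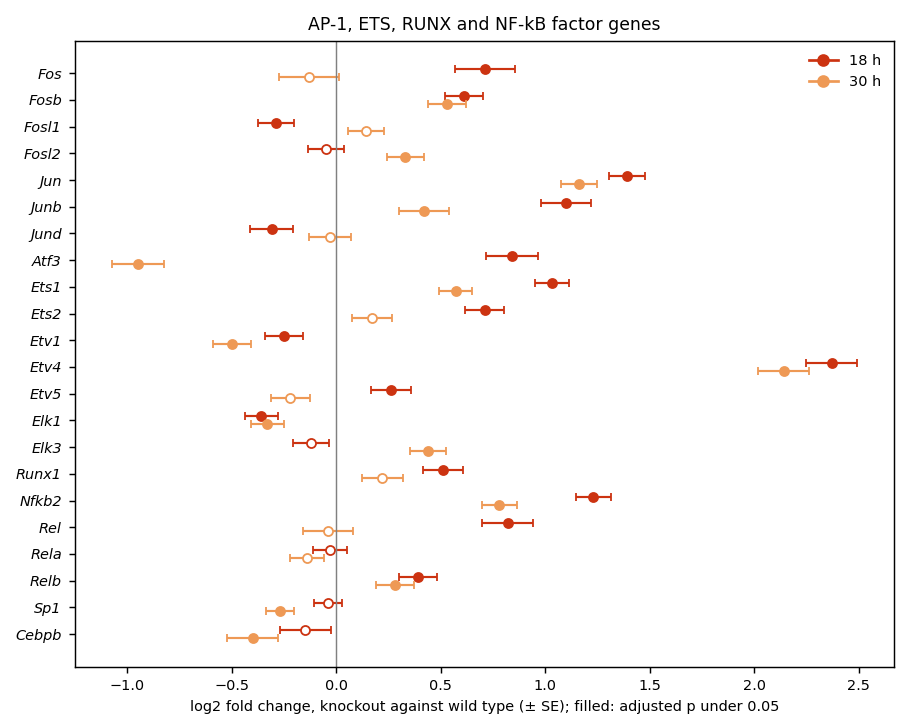
Log2 fold change of knockout against wild type (± SE) for 22 genes of AP-1, ETS, RUNX and NF-kB factors at 18 h (red) and 30 h (orange), filled where the adjusted p was under 0.05. Etv4 lies highest at 2.37 and 2.14, and Atf3 moves from 0.84 at 18 h to -0.95 at 30 h.

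Genes whose 12 array values, centred on their mean, lay closest to a family member were found by root mean square distance on the log2 scale. The nearest to Mmp10 were Tnc (0.289) and Stc1 (0.31), and the nearest to Mmp2 were the interferon-induced genes Mx2 (0.187) and Slfn2 (0.23). For Mmp3 they were Zic2 (0.255) and Elmod1 (0.273), for Mmp13 Hes1 (0.211) and Fam107b (0.221), and for Mmp9 Ets1 (0.095) and Pgm2 (0.097). For Timp3 they were Pla2g7 (0.134) and Fam171b (0.151), and for Timp1 Nfkbib (0.082) and Cdca5 (0.085). Distances are not comparable between members, whose group means span from 1.02 for Timp1 to 5.98 for Mmp10.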

How the data were processed

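Total RNA (100 ng per sample) was hybridised to 12 Affymetrix arrays. The authors deposited one linear intensity for each probe set. The submitters' processing notes name PLIER 2.0 and Affymetrix Expression Console 1.1, and no source used here gives the normalization between arrays. Of 35557 probe sets, 21789 had 1 gene symbol, 1621 several and 12147 none listed. Symbols were updated by Entrez number for 21698 of them. Each gene took its probe set of highest mean, giving 19938 genes, with no filter on dim genes.

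Values were taken as log2(intensity + 16) and limma 3.58.1 (R 4.3.3) fitted 4 group means to the 12 arrays by lmFit and eBayes with an intensity trend (8 residual and 9.14 prior degrees of freedom). Adjusted p-values are two-sided, Benjamini-Hochberg over all 19938 genes for each of 5 comparisons. The code of the fit was tried on simulated arrays with independent noise and few changed genes, a setting unlike these data. Its outcome is not used here. Arrays of a group differed with an SD of 0.149 to 0.27 on the log2 scale. The labels name no batch.

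The members and lists were chosen with earlier results of these data known, and lists are described by counts and medians only. All 10 members are reported. From each list up to 3 of the largest rises and 3 of the largest falls among called genes were named. The cluster neighbours, the synapsins and the 2 genes nearest to each member whose group means span at least 1 (log2) were named too. Of the factor genes, Jund, Fosl1 and Cebpb were named in addition. Ptprc was chosen after its values were seen. Genes of the lists without a probe set of 1 symbol (among them Mmp15, Serpine2, Adamts2, Runx2, Nfkb1, Il1r1, Areg, Spp1 and Bglap) were not analysed here. Promoters of Mmp2 and Mmp9 were not used here.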

Additional observations from a re-analysis of the deposited data

Results flagged for a closer look

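The time effect differed between the genotypes by the test of the difference itself in 4 of the 10 genes, where 13.4% of all genes were called. For Mmp3 the effect in knockout minus that in wild type was 1.01 (adjusted p = 0.0013), higher at 30 h in knockout and level in wild type. For Mmp14 the difference was 0.56 (adjusted p = 0.00302), with 0.41 in knockout and -0.16 in wild type. For Timp1 it was -0.53 (adjusted p = 0.0203), with -0.24 in knockout and 0.29 in wild type. For Mmp9 it was -0.50 (adjusted p = 0.0478), with -0.36 in knockout and 0.14 in wild type. The Timp1 call ended on leaving out any 1 of 6 arrays and the Mmp9 call on leaving out any 1 of 11. Both also ended without the intensity trend (adjusted p = 0.0557 for Timp1 and 0.0501 for Mmp9).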

How the results depend on the processing

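No called value of the 10 genes changed direction under 25 alternatives, and 37 of the 50 gene and comparison pairs kept their side of the threshold in all of those run. The alternatives were offsets of 1 and 64, filters at the 30th and 50th percentile, 3 scalings, no trend, weights per array, robust eBayes, the mean of all probe sets, only the arrays compared, the replicate block and each array left out. Genes removed by a filter were not fitted. Some alternatives could hardly move a call. The mean of all probe sets left the values of the 10 genes as they were, since each has 1 probe set. Where 2 groups were compared, leaving out an array of another group changed no fold change. A 2-fold change, asked for in addition, was applied to the counts of calls only. The 50th percentile filter kept 6 of the 10 genes, which left 3 called for time in knockout and 2 for the difference between time effects. Without the intensity trend 263 genes were called for time in wild type and 2 of the 10 for the difference. Array weights, whose estimate stopped short of its convergence tolerance, called 1443 genes for time in wild type, 10812 for time in knockout and, for the difference, 6227, with 2 and 9 of the 10 for time in wild type and knockout; the cause was not tested. Only the arrays compared gave 794 genes for time in wild type. A 2-fold change left 2243, 1727, 6, 291 and 271 genes for genotype at 18 h and 30 h, for time in either genotype, wild type first, and for the difference, and 5, 0, 0 and 1 of the 10 for the last 4.

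Leaving out single arrays gave 129 to 847 genes for time in wild type, 4220 to 6030 for time in knockout and 1729 to 4021 for the difference of time effects. Of the 10 genes, 0 to 1 were then called for time in wild type, 3 to 8 for time in knockout and 2 to 5 for the difference. The highest counts of genes, 847, 6030 and 4021, came without knockout 18 h replicate 1. Same-numbered arrays correlated in their deviations at -0.393 to 0.34, with 4 of 18 pairs above 0.1, and 4 of 12 arrays correlated best with their own number. With 3 arrays per group these values cannot decide whether the number pairs the samples, and the main fit left the number out. With the replicate block 8926, 7655, 401, 5305 and 2539 genes and 9, 8, 1, 6 and 3 of the 10 were called, Mmp2 being added for time in knockout (-0.34, adjusted p = 0.0484) and Mmp9 lost for the difference (-0.50, adjusted p = 0.0639). Signal over background is not given for these arrays, so how far dim values such as Mmp10 in wild type lie above background is unknown.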

Other observations

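Of 26 measured genes that induce or restrain MMPs, 13 were higher and 9 lower in knockout at 18 h and 12 higher and 9 lower at 30 h, beside 45.5% and 39.2% of all genes called. Il1rn, the antagonist of interleukin 1, averaged 6014 ± 241 (SD, n = 3) in wild type at 18 h, against 36.3 ± 6.52 (SD, n = 3) in knockout, and was lower by -6.86 and -6.55. The growth factor genes Pdgfb (3.79 and 3.88), Hbegf (3.05 and 2.05) and Tgfb2 (1.85 and 1.72) were higher, and Hgf (-3.91 and -2.85) and Fgf2 (-3.31 and -2.35) were lower.

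Among 29 MMP substrate genes 12 were higher and 7 lower at 18 h and 7 higher and 12 lower at 30 h, beside the same shares of all genes. Tnc (5.58 and 5.49), the proteoglycan gene Dcn (3.74 and 4.33) and Igfbp3 (2.07 and 1.86) were higher, and the collagen genes Col6a2 (-4.77 and -4.80), Col6a1 (-3.54 and -4.00) and Col3a1 (-2.53 and -2.20) were lower.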
